A study of Sus scrofa with 36 samples.

Results

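Solute carriers were followed as a superfamily in the hippocampus of piglets fed milk replacer with or without added lactoferrin, an iron-binding glycoprotein of milk. A gene was included where the array annotation gave its probe set exactly 1 gene symbol and that symbol began with SLC and a digit. This gave 120 genes of 37 SLC families, on 176 of the 23999 probe sets that are no array controls. In all, 10069 probe sets carried 1 symbol, and these named 6765 genes. Each gene was represented by its probe set with the highest mean over 36 arrays, with 81 genes having 1 probe set and 39 several. Dim probe sets were kept. 3 of the 120 genes, SLC9A3R1, SLC9A3R2 and SLC2A4RG, are named for a transporter they regulate and are not transporters.

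Solute carriers move small molecules across membranes, mostly by coupling a substrate to an ion gradient or by exchanging it for another substrate. In the brain they clear glutamate and monoamines from the extracellular space, bring glucose and amino acids across the blood-brain barrier, and set the chloride and proton levels of neurons. Those of the SLC25 family sit mainly in the inner mitochondrial membrane and pass ADP, ATP, phosphate and metabolites. The ZIP (SLC39) and ZnT (SLC30) families carry zinc and other metals in opposite directions, into and out of the cytosol.

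The animals were 36 male Landrace by Large White piglets, 12 in each of 3 feeding groups. Feeding ran from day 3 to day 38 after birth. The control group received the replacer with its basal lactoferrin, an amount the labels do not quantify. The medium-dose group had 0.6 g/L added and the high-dose group 1.2 g/L. Both dose groups therefore also took in the basal amount. RNA came from the whole hippocampus sample of each animal, 1 array per animal. The sample descriptions also begin with 1 of 5 set codes (S1, S2, S3, S4, S5), and nothing in the labels says what these codes stand for. S1 holds 4 samples (2 control, 2 high-dose and 0 medium-dose), S2 holds 10, S3 holds 8, S4 holds 9 and S5 holds 5. All values are RMA values on a log2 scale, deposited with 1 decimal, so a step of 0.1 is the smallest difference between 2 arrays. The number of arrays limits the precision.

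The tissue label was checked against lists of cell type markers that hold no gene whose symbol begins with SLC and a digit. The mean of 10 measured neuron markers lay between 10.90 and 12.11 on single arrays, and that of 15 oligodendrocyte markers between 9.19 and 10.53. Of 16 genes that mark the hippocampus or its fields only NEUROD1 (6.63 ± 0.55, SD, n = 36) and DSP (5.37 ± 0.30) were matched, so the region itself was hardly tested. High-dose replicate 2 stood apart, with the lowest neuron mean (10.90) and the highest oligodendrocyte mean (10.53). The neuron mean ranged from 11.36 to 12.03 in controls, from 11.47 to 11.99 at the medium dose and from 10.90 to 12.11 at the high dose. The oligodendrocyte mean ranged from 9.19 to 10.28, from 9.25 to 9.66 and from 9.19 to 10.53 in the same order.

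Signal was measured for carriers of every substrate class except the vesicular transmitter transporters, which have no member among the 120. SLC17A7, SLC17A6, SLC32A1, SLC12A2, SLC12A5, SLC40A1, SLC16A1 and SLC7A5 were not analysed here. Of the 120 members 19 had a mean below the 25th percentile of all probe sets (log2 4.92), and 69 lay at or above the 50th (6.61). Probe sets differ in how brightly their probes bind, so a level is not compared between genes. Members were about as variable as other probe sets, with a median SD over 36 arrays of 0.16 against 0.17 for all.

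The members that varied most from animal to animal were SLC1A3, the astrocyte glutamate transporter GLAST, and SLC26A11, an anion exchanger, each with an SD of 0.47 over 36 arrays. SLC1A3 ranged from 8.5 to 10.4 and SLC26A11 from 8.7 to 10.8. SLC3A1, the heavy chain of the cystine transporter, had an SD of 0.42 and ranged from 8.3 to 10. SLC5A4, a member of the SGLT family, had an SD of 0.38 and ranged from 7.3 to 8.9. These ranges were found inside each feeding group as well: SLC26A11 ran from 8.9 to 10.2 in controls, from 8.8 to 10.2 at the medium dose and from 8.7 to 10.8 at the high dose. SLC25A46 (SD 0.34), SLC25A48 (0.31), SLC25A17 (0.31), SLC25A36 (0.29), SLC35D2 (0.28) and SLC12A4 (0.27) completed the 10 most variable. The steadiest member, SLC25A6, an ADP/ATP carrier, had an SD of 0.08.

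No solute carrier passed between any pair of feeding groups. By limma with set code as a block and Benjamini-Hochberg adjustment over all 23999 probe sets, 0 of 120 members reached an adjusted p under 0.05 in each of the 3 contrasts and in the F test of any difference, where 0 of all probe sets did (0%). The smallest adjusted p among members was 0.609 for medium dose minus control, 0.876 for high dose minus control and 0.838 for high minus medium dose. The half-width of the 95% interval of a difference had a median of 0.14 in each contrast. Differences beyond 0.2 in either direction were estimated for 2 members at the medium dose, 0 at the high dose and 4 between the doses.

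At an unadjusted p under 0.05, medium dose minus control held 4 of 120 members, against 6.43% of all probe sets, with 3 higher (background 3.67%) and 1 lower (2.76%). High dose minus control held 5, against 5.63%, with 4 higher (3.71%) and 1 lower (1.92%). High minus medium dose held 12, against 5.79%, with 9 higher (2.82%) and 3 lower (2.97%). The F test held 8, against 6%. With single arrays left out these counts ran from 2 to 7, from 1 to 9, from 6 to 16 and from 3 to 13 in that order. The share of all probe sets is not given beside these ranges, so they are not read as a result about the members. The 3 contrasts share samples and are not independent of each other. Estimates at the high dose were above control for 83 of 120 members, against 54.4% of all probe sets, with a median of 0.03 against 0.01. At the medium dose 62 members were above control (all probe sets: 51.9%), with a median of 0.00 for both. Between the doses 80 members were higher at the high dose (all probe sets: 53.3%), with a median of 0.03 against 0.01.

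**Figure D1:**
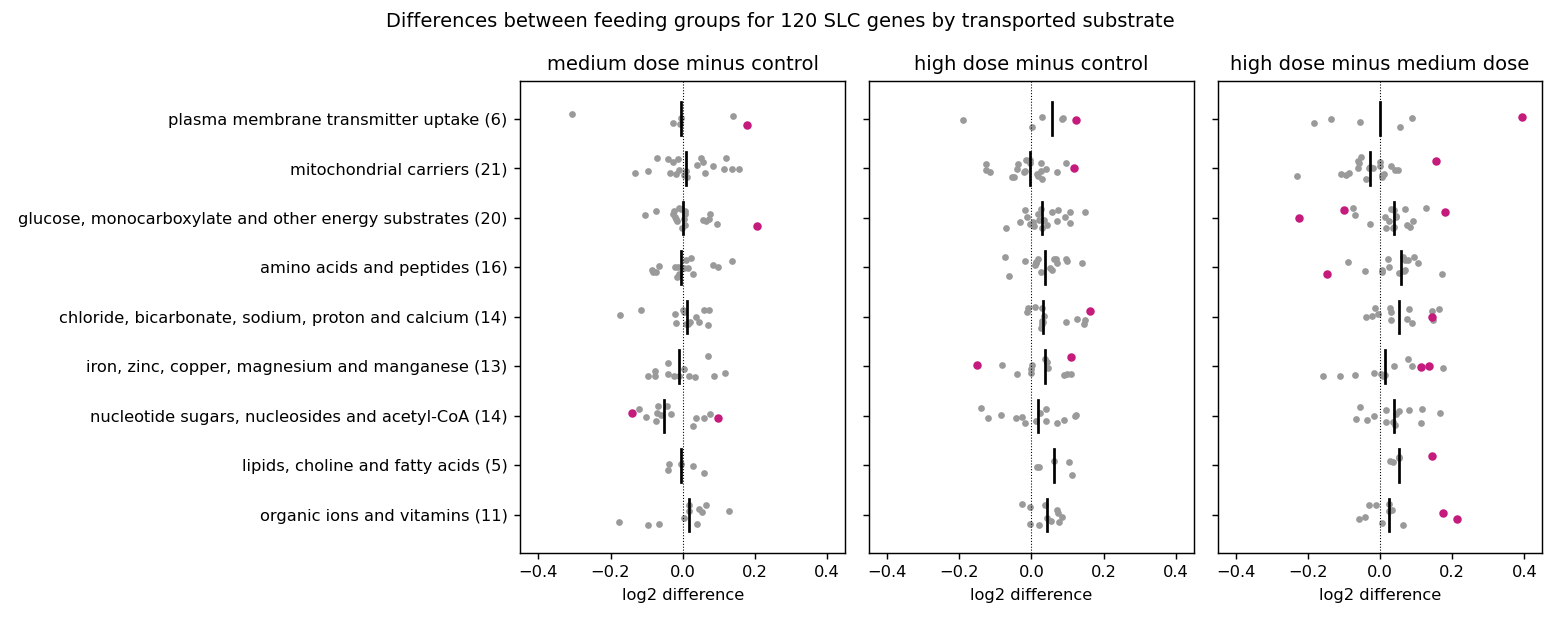
Log2 differences of 120 SLC genes between feeding groups (x axis, 1 panel per contrast), grouped by transported substrate (y axis, number of genes in parentheses); each point is a gene, black bars are class medians, and coloured points have an unadjusted p under 0.05. Class medians lie close to 0 in each panel, and no point passed after adjustment over all probe sets.

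Among the 6 transporters that take up transmitters from the extracellular space, the glutamate transporter SLC1A6 (EAAT4, known mainly from cerebellar Purkinje cells) had the smallest p of all members in medium dose minus control. Its values in the control arrays ran from 7.1 to 7.7 with a median of 7.4. Medium-dose arrays ran from 7.4 to 7.8 with a median of 7.6, and high-dose arrays from 7.4 to 7.8 with a median of 7.5. The groups overlapped, although no array of either dose lay below the control median. The difference was 0.18 (SE 0.06, p = 0.00538, adjusted p = 0.609) at the medium dose and 0.12 (SE 0.06, p = 0.0453, adjusted p = 0.879) at the high dose, neither of which passed.

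SLC1A3 had the largest estimate of any member both for medium dose minus control and for high minus medium dose. Control arrays ran from 9.1 to 10.4 (median 9.6), medium-dose arrays from 8.5 to 10.3 (9.35) and high-dose arrays from 9.2 to 10.4 (9.65). The medium-dose group thus reached lower than the others, with 8 of 12 arrays below the control median, but it overlapped both. Its difference was -0.31 (95% interval -0.68 to 0.06) from control, and high minus medium dose was 0.39 (0.02 to 0.76, p = 0.0371, adjusted p = 0.838).

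SLC1A2, the main glutamate transporter of astrocytes (GLT-1), ran from 11.8 to 12.3 in controls (median 12.1), from 11.3 to 12.6 at the medium dose (12.15) and from 11.5 to 12.3 at the high dose (11.9). At the high dose 9 of 12 arrays lay below the control median, and the difference was -0.19 (SE 0.10, p = 0.0746, adjusted p = 0.892). SLC1A1, the neuronal glutamate and cysteine transporter, had means of 9.27 ± 0.30, 9.42 ± 0.10 and 9.27 ± 0.26 (SD, n = 12) in control, medium and high dose. Its lowest arrays were control replicate 10 at 8.4 and high-dose replicate 2 at 8.6. SLC6A4, the serotonin transporter, had means of 5.47 ± 0.14, 5.50 ± 0.13 and 5.55 ± 0.18 in that order.

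**Figure D2:**
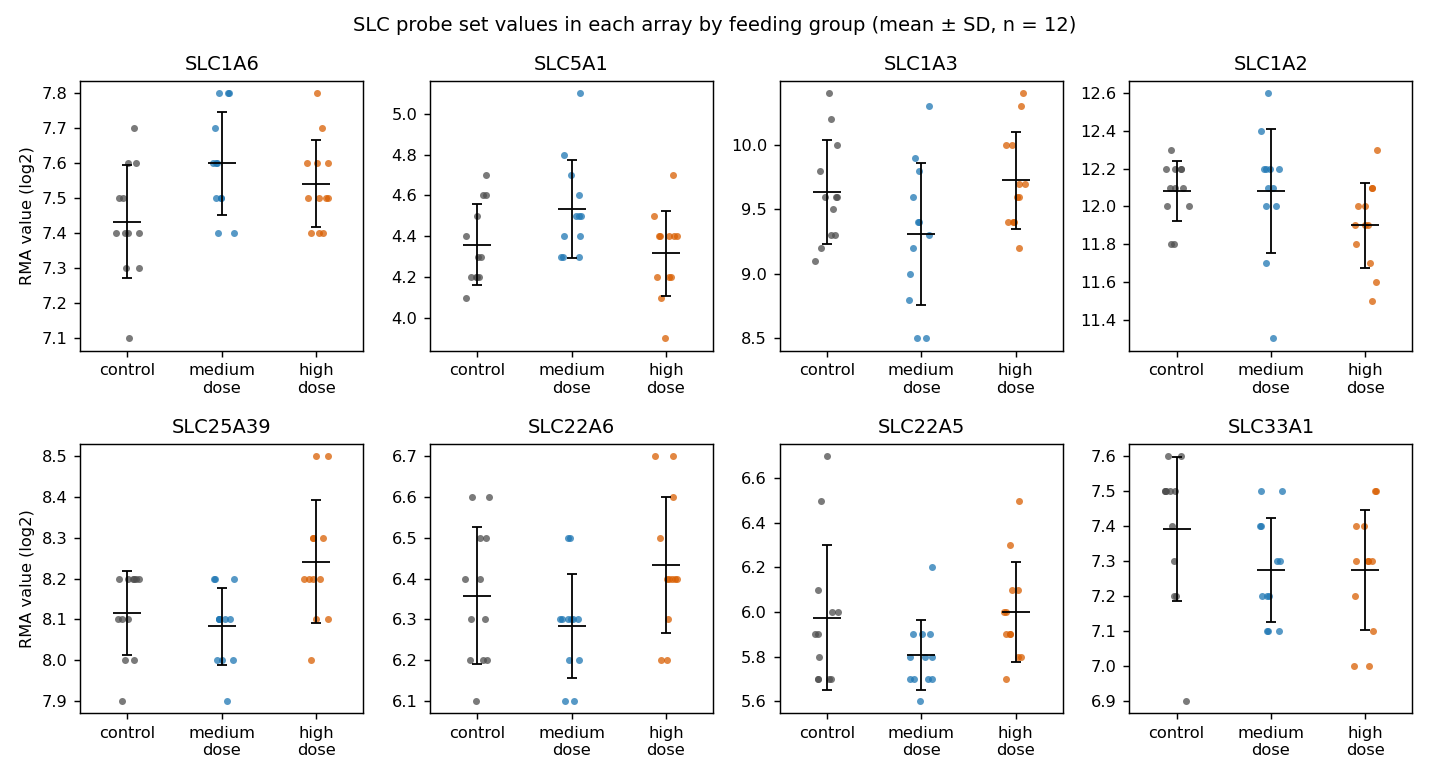
RMA values (log2, y axis) of 8 SLC genes in each of 36 arrays by feeding group, with the mean and SD of each group of 12 in black. The groups overlap in every panel, and SLC1A3 has its lowest arrays (8.5) at the medium dose.

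The class of glucose, monocarboxylate and other energy substrate carriers has 20 members, including the regulator SLC2A4RG. At an unadjusted p under 0.05, 1 was higher at the medium dose (all probe sets: 3.67%) and 0 at the high dose (3.71%). That member, the sodium-glucose cotransporter SLC5A1 (SGLT1), is dim, with a mean of 4.40. It ran from 4.1 to 4.7 in controls (median 4.3), from 4.3 to 5.1 at the medium dose (4.5) and from 3.9 to 4.7 at the high dose (4.4). The medium-dose group sat highest but overlapped the others, with differences of 0.21 (p = 0.0247) from control and -0.22 (p = 0.0153) for high minus medium dose, adjusted p = 0.726 and 0.838.

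The best known glucose transporters of brain gave no difference that passed. SLC2A1 (GLUT1), the glucose transporter of the blood-brain barrier, had means of 9.22 ± 0.17, 9.22 ± 0.15 and 9.13 ± 0.11 (SD, n = 12) in control, medium and high dose. SLC2A3 (GLUT3), the neuronal glucose transporter, had 7.96 ± 0.16, 7.98 ± 0.13 and 7.97 ± 0.25. The high-minus-control interval was -0.19 to 0.05 for SLC2A1 and -0.12 to 0.18 for SLC2A3. SLC37A4, which moves glucose 6-phosphate into the endoplasmic reticulum, was 0.10 above control at the medium dose (p = 0.0575) and -0.10 for high minus medium dose (p = 0.0483). SLC16A3, a lactate exporter (MCT4) with a dim signal, was 0.18 higher at the high than at the medium dose (p = 0.0116, adjusted p = 0.838).

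There were 21 SLC25 carriers. At an unadjusted p under 0.05, 0 differed from control at the medium dose (all probe sets: 6.43%) and 1 at the high dose (5.63%). SLC25A39, a mitochondrial glutathione carrier, ran from 7.9 to 8.2 in controls (median 8.15), from 7.9 to 8.2 at the medium dose (8.1) and from 8.0 to 8.5 at the high dose (8.2). Some high-dose arrays exceeded every control array, and 9 of 12 exceeded the control median. Its high-minus-control difference was 0.12 (SE 0.05, p = 0.0279, adjusted p = 0.879), and high minus medium dose was 0.15 (p = 0.00557, adjusted p = 0.838).

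SLC25A12, the aspartate-glutamate carrier of the malate shuttle, had means of 9.77 ± 0.15, 9.90 ± 0.06 and 9.79 ± 0.21 in control, medium and high dose. Its medium-dose difference of 0.12 did not pass (p = 0.0802). SLC25A30 was estimated 0.14 above control at the medium dose (p = 0.0732). The ADP/ATP carrier SLC25A4 had means of 10.82 ± 0.12, 10.78 ± 0.15 and 10.81 ± 0.11, and SLC25A37, mitoferrin 1, which takes iron into mitochondria, had 7.69 ± 0.22, 7.65 ± 0.14 and 7.67 ± 0.17.

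Of carriers of iron, zinc, copper, magnesium and manganese, 13 were measured. At the high dose 1 was higher and 1 lower at an unadjusted p under 0.05 (all probe sets: 3.71% and 1.92%). At the medium dose 0 had such a p in either direction (6.43%). Counts this small are not read as a trait of the class. SLC39A4 (ZIP4), a zinc importer, ran from 7.7 to 8.1 in controls, from 7.5 to 8.1 at the medium dose and from 7.8 to 8.2 at the high dose, with medians of 7.9, 7.9 and 8.0. It was 0.11 above control at the high dose (SE 0.05, p = 0.0434, adjusted p = 0.879). SLC30A5 (ZnT5), which loads zinc into the secretory pathway, ran from 6.1 to 6.4 in controls and from 5.8 to 6.4 at the high dose, with medians of 6.25 and 6.05. It was -0.15 from control (SE 0.07, p = 0.0426, adjusted p = 0.879), and the groups overlapped for both genes. The 2 other probe sets of SLC30A5, with means of 5.93 and 3.23, gave 0.02 (p = 0.812) and 0.04 (p = 0.498) at the high dose.

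SLC11A2 (DMT1), the iron importer of endosomes, had means of 7.13 ± 0.12, 7.13 ± 0.10 and 7.14 ± 0.15 (SD, n = 12) in control, medium and high dose. Its 95% interval at the high dose was -0.11 to 0.11. SLC39A14 (ZIP14), a carrier of zinc, manganese and iron, had means of 6.48 ± 0.24, 6.46 ± 0.19 and 6.41 ± 0.23. SLC30A3 (ZnT3), which fills glutamatergic synaptic vesicles with zinc, had 8.34 ± 0.21, 8.47 ± 0.33 and 8.32 ± 0.26. SLC39A5, another zinc importer, was 0.11 higher at the high than at the medium dose (p = 0.0418, adjusted p = 0.838).

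Amino acid and peptide carriers, 16 in number, had 0 members at an unadjusted p under 0.05 against control at either dose. The shares of all probe sets were 6.43% at the medium and 5.63% at the high dose. SLC36A2, a carrier of small amino acids, was estimated 0.14 above control at both doses (p = 0.0946 and 0.0788). SLC3A2, the heavy chain that many exchangers of large amino acids need, had means of 6.98 ± 0.17, 7.03 ± 0.10 and 7.08 ± 0.13. SLC6A8, the creatine transporter, had 8.43 ± 0.26, 8.35 ± 0.17 and 8.43 ± 0.27. SLC7A1, the main importer of arginine and lysine, was -0.15 for high minus medium dose, at an unadjusted p under 0.05.

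Among the 14 members of the class of chloride, bicarbonate, sodium, proton and calcium carriers, which includes the regulators SLC9A3R1 and SLC9A3R2, SLC26A3, a chloride-bicarbonate exchanger known from the intestine, was the member with the smallest p at the high dose. Its signal lies below the 25th percentile, at 3.4 to 3.8 in controls (median 3.5), 3.4 to 3.9 at the medium dose (3.6) and 3.5 to 4.1 at the high dose (3.7). At the high dose 11 of 12 arrays lay above the control median, and the difference was 0.16 (SE 0.07, p = 0.0174, adjusted p = 0.876). SLC34A2, a phosphate transporter, was estimated 0.15 above control at the high dose (p = 0.0643). The bicarbonate transporter of astrocytes, SLC4A4, had means of 9.34 ± 0.17, 9.43 ± 0.31 and 9.41 ± 0.20, and the sodium-calcium exchanger SLC8A1 had 6.34 ± 0.24, 6.22 ± 0.23 and 6.35 ± 0.22.

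The 14 carriers of nucleotide sugars, nucleosides and acetyl-CoA held 1 higher and 1 lower member at the medium dose at an unadjusted p under 0.05. The shares of all probe sets were 3.67% and 2.76%. At the high dose these carriers held 0 (all probe sets: 5.63%). SLC35B1, which brings ATP into the endoplasmic reticulum, had means of 9.10 ± 0.12 in controls and 9.20 ± 0.07 at the medium dose (difference 0.10, p = 0.036, adjusted p = 0.744). SLC35B3, a Golgi carrier of the sulfate donor PAPS, had 7.65 ± 0.13 and 7.53 ± 0.21 (difference -0.14, p = 0.0499, adjusted p = 0.777). SLC33A1, the acetyl-CoA transporter of the endoplasmic reticulum, had a control median of 7.5. No array of either dose exceeded that median, and 10 of 12 at each dose lay below it. Its differences were -0.10 (p = 0.107) and -0.12 (p = 0.056), neither of which passed. These SLC33A1 values are of the selected probe set. The gene has other probe sets, whose feeding differences are not given here. SLC28A3, a dim nucleoside transporter, was estimated 0.12 above control at the high dose (p = 0.0562).

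In the remaining classes, 5 carriers of lipids and choline and 11 of organic ions and vitamins, 0 members had an unadjusted p under 0.05 against control. Of all probe sets 6.43% did at the medium dose and 5.63% at the high dose. Between the doses SLC22A6 (OAT1), an organic anion transporter, ran from 6.1 to 6.5 at the medium dose (median 6.3) and from 6.2 to 6.7 at the high dose (6.4), a difference of 0.17 (p = 0.00854, adjusted p = 0.838). SLC22A5 (OCTN2), the carnitine transporter, was 0.21 higher at the high than at the medium dose (p = 0.0262) and SLC27A1, a fatty acid transporter, 0.15 higher (p = 0.018). The liver-type members SLC2A2 and SLC10A1 were dim at 4.27 and 3.51. SLC2A2 was estimated 0.15 above control at the high dose (p = 0.0643).

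Set code gave calls where the diet gave 0, and 1 solute carrier was among them. The F test over 5 set codes called SLC39A14 (adjusted p = 0.0281), against 1.69% of all probe sets, and 18 of 120 members had an unadjusted p under 0.05, against 15.3%. In the 4 arrays of S1 the values of SLC39A14 were 5.9 (control replicate 1), 6.2 (control replicate 2), 6.2 (high-dose replicate 1) and 6.0 (high-dose replicate 2). S2 ran from 6.1 to 6.9 (median 6.45), S3 from 6.4 to 6.6 (6.55), S4 from 6.3 to 6.8 (6.6) and S5 from 6.2 to 6.6 (6.3). S1 lay below S3 and S4 without overlap, while its range overlapped those of S2 and S5. S1 minus the mean of the other 4 set codes was -0.43 (SE 0.09, adjusted p = 0.0277), the only call among members for S1, where 0.546% of all probe sets were called lower and 0.175% higher.

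The call of SLC39A14 rested in part on single arrays, most of them of the small S1. The F test gave adjusted p = 0.139 without control replicate 1, 0.0621 without control replicate 2 and 0.0749 without high-dose replicate 2. It gave 0.0512 without high-dose replicate 11, which is in S4. The same S1 difference gave 0.15, 0.0519 and 0.0738 without the first 3 of these. A second probe set of SLC39A14, with a mean of 5.36, gave -0.10 for S1 (p = 0.212). The oligodendrocyte mean was 9.87 in S1 and between 9.47 and 9.55 in the other set codes. Inside S1 it spread widely, from 9.19 in high-dose replicate 1 to 10.53 in high-dose replicate 2. With the oligodendrocyte and choroid plexus means as covariates the S1 difference was -0.38 (adjusted p = 0.0554) and the F test gave adjusted p = 0.0825.

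In S4, 2 members, a carrier of the endoplasmic reticulum and one of mitochondria, were lower than in the other set codes (all probe sets: 0.213% lower, 0.683% higher), and 0 were higher. In S2, S3 and S5 0 members were called in either direction (all probe sets: 0% in S2 and S5, and 0.0375% higher and 0.133% lower in S3). SLC33A1 ran from 6.9 to 7.3 in S4 (median 7.2), where S1 ran from 7.3 to 7.6, S2 from 7.1 to 7.6, S3 from 7.0 to 7.5 and S5 from 7.2 to 7.5. The S4 difference was -0.24 (SE 0.06, adjusted p = 0.0433). SLC25A11, the carrier that exchanges oxoglutarate for malate, ran from 7.9 to 8.3 in S4 (median 8.2) and from 8.2 to 8.4 over S1, S2, S3 and S5, and its difference was -0.17 (SE 0.04, adjusted p = 0.047). Both sat at the threshold: with 1 array left out in turn, 17 of 36 fits lost SLC33A1 (adjusted p from 0.0505 to 0.137 in these) and 27 lost SLC25A11 (0.0506 to 0.135). The largest adjusted p for SLC33A1 came without control replicate 10, and that for SLC25A11 without high-dose replicate 11. The 3 other SLC33A1 probe sets had S4 differences of -0.02, 0.02 and 0.03.

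Next by p in the set code test were SLC39A5 (adjusted p = 0.0702), SLC25A20, the mitochondrial carnitine carrier (0.0938), SLC9A3R2 (0.22), SLC11A1, an endosomal metal transporter of phagocytes (0.265), SLC39A4 (0.266), SLC38A10 (0.282) and SLC46A1, the folate transporter (0.286), none of which passed. Whether the feeding difference varied with set code was tested as an interaction: 0 of 120 members passed (all probe sets: 0.0167%), with 11 at an unadjusted p under 0.05 against 6.68%.

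**Figure D3:**
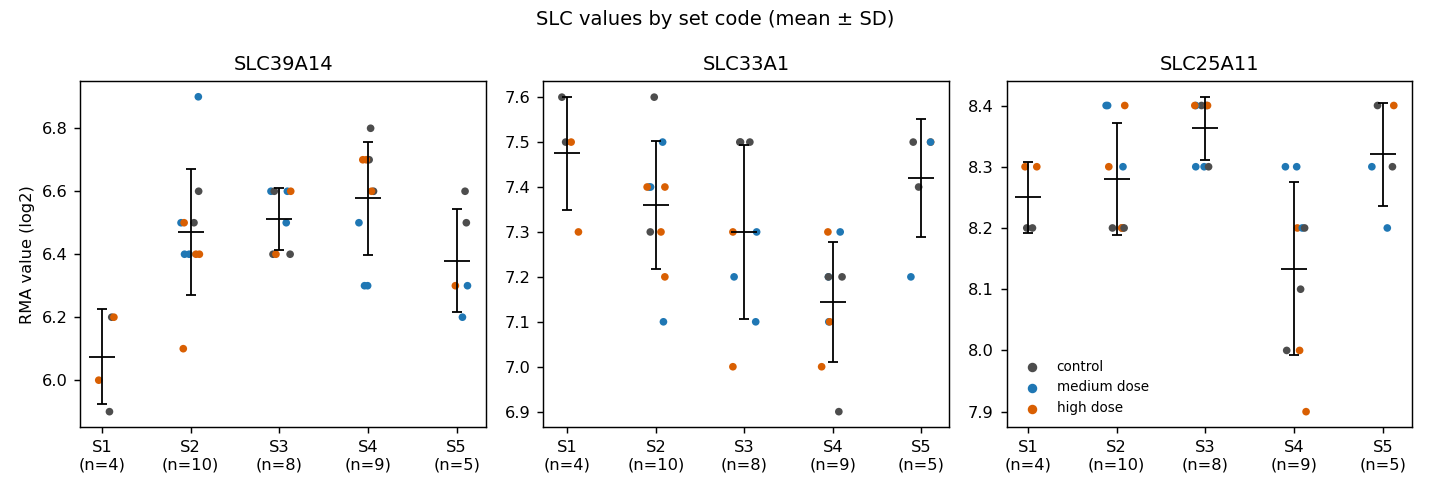
RMA values (log2, y axis) of 3 SLC genes by set code (x axis, number of arrays in parentheses), coloured by feeding group, with mean and SD in black. The 4 arrays of S1 hold SLC39A14 values of 5.9 to 6.2, and S4 holds the lowest arrays of SLC33A1 (6.9) and SLC25A11 (7.9).

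Of the cell type lists, those of neurons and oligodendrocytes had solute carriers that moved with them from array to array. For each marker list, the slope of a member's log2 value per log2 unit of the list mean was fitted over 36 arrays with feeding group and set code in the model. On the neuron mean 29 of 120 members passed at an adjusted p under 0.05, against 25.7% of all probe sets: 12 with a positive slope (background 12.3%) and 17 with a negative one (13.3%). On the oligodendrocyte mean 29 passed, against 21.8%: 16 positive (10.8%) and 13 negative (11.1%). These shares are near the background. Of the called members 24 were shared (82.8% of each list), each with opposite signs. The same overlap was not counted over all probe sets, so it is not read as a trait of the members. Both list means come from the same arrays, of which high-dose replicate 2 is the lowest for neurons and the highest for oligodendrocytes. In bulk tissue fewer cells of a type and less RNA per cell cannot be told apart.

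**Figure D4:**
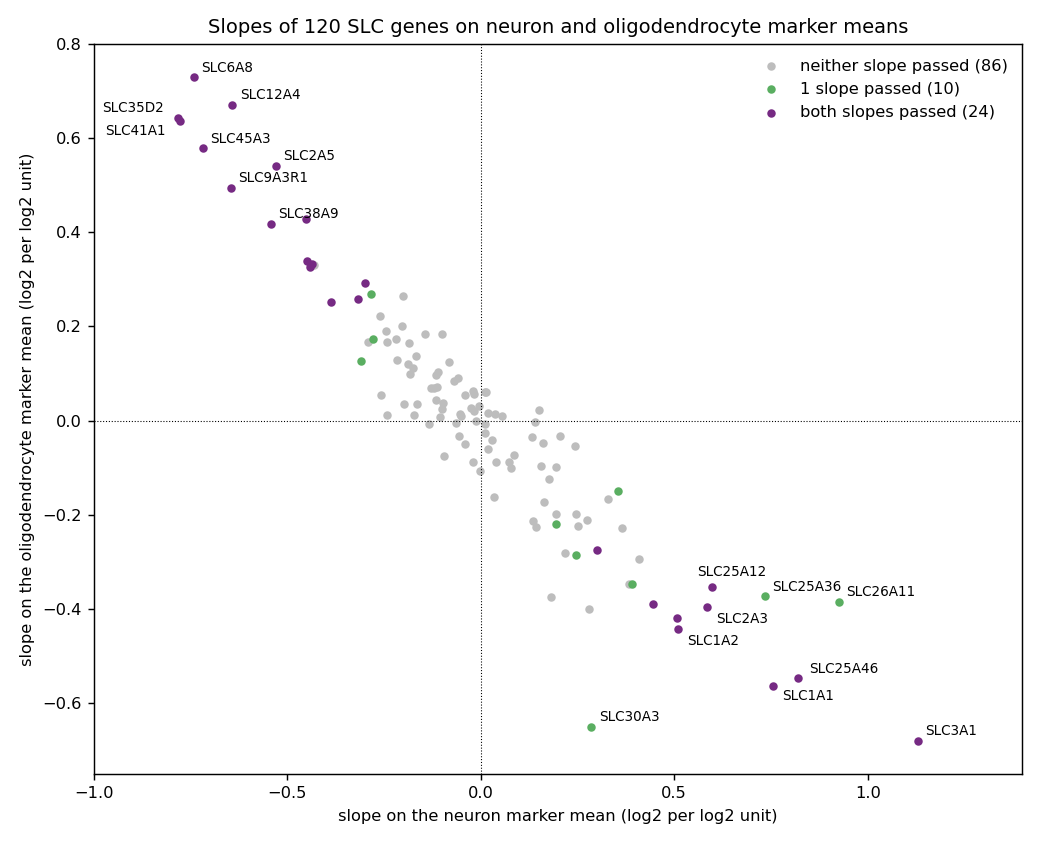
Slope of each of 120 SLC genes on the neuron marker mean (x axis) and on the oligodendrocyte marker mean (y axis), in log2 per log2 unit over 36 arrays; colours show how many of both slopes passed at an adjusted p under 0.05. SLC3A1 has the highest neuron slope (1.13) and SLC6A8 the highest oligodendrocyte slope (0.73).

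Carriers with a positive neuron slope included SLC2A3 and SLC1A1, which are known from neurons. The astrocyte transporter SLC1A2 passed as well, while SLC30A3 of glutamatergic synaptic vesicles did not. SLC2A3 had a slope of 0.58 (SE 0.10, adjusted p = 3.66e-05) and SLC1A1 one of 0.75 (SE 0.14, adjusted p = 0.00015). SLC25A12 had the smallest p, with a slope of 0.60 (SE 0.08, adjusted p = 5.35e-07). Of the 21 SLC25 carriers, 6 rose with the neuron mean and 2 fell, against 12.3% and 13.3% of all probe sets, and 2 of these 8 passed without high-dose replicate 2 and control replicate 4. SLC25A14 (0.51), the phosphate carrier SLC25A3 (0.30), the ADP/ATP carrier SLC25A5 (0.44), SLC25A36, a carrier of pyrimidine nucleotides (0.74), and SLC25A46, a protein of the outer mitochondrial membrane (0.82), rose beside SLC25A12. SLC25A37 (-0.44) and the citrate carrier SLC25A1 (-0.28) fell. SLC3A1 had a slope of 1.13 (adjusted p = 0.00135) and SLC26A11 one of 0.92 (adjusted p = 0.0375).

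The astrocyte transporter SLC1A2 also rose with the neuron mean (0.51, adjusted p = 0.0389) and fell with the oligodendrocyte mean (-0.44, adjusted p = 0.0356). SLC1A3 did not pass on either list (0.28, adjusted p = 0.602 on neurons, and -0.40, adjusted p = 0.364 on oligodendrocytes). SLC30A3 fell with the oligodendrocyte mean (-0.65, SE 0.15, adjusted p = 0.0012), while its neuron slope of 0.29 did not pass (adjusted p = 0.348).

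Carriers that rose with the oligodendrocyte mean were led by SLC6A8, the creatine transporter, with a slope of 0.73 (SE 0.10, adjusted p = 5.47e-07). Its lowest array was high-dose replicate 1 at 7.9, which had an oligodendrocyte mean of 9.19, and its highest were control replicate 4 and high-dose replicate 2 at 8.9. The magnesium transporter SLC41A1 had a slope of 0.64 (SE 0.11, adjusted p = 5.3e-05), with 8.5 in high-dose replicate 2 and 8.2 in control replicate 4 as its highest arrays. SLC35B2, a Golgi carrier of the sulfate donor PAPS, had one of 0.43 (adjusted p = 6.83e-05), and SLC12A4, the potassium-chloride cotransporter KCC1, one of 0.67 (adjusted p = 0.000268). The sugar transporter SLC45A3 (0.58), the fructose transporter SLC2A5 (0.54), SLC35D2, a carrier of UDP-sugars (0.64), and the choline transporter SLC44A2 (0.26) rose with it as well. Of 14 members of the nucleotide sugar class 3 rose and 1, SLC35B1 (-0.22), fell, against 10.8% and 11.1% of all probe sets, and 0 of these 4 passed without those 2 arrays.

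Many of these slopes leaned on the arrays at the ends of the range. Without high-dose replicate 2 and control replicate 4, the arrays farthest from the median of either list, 13 members passed on the neuron mean (background 11%) and 6 on the oligodendrocyte mean (5.33%), of which 9 and 6 were among those called before. Without high-dose replicate 2 alone the counts were 21 (13.5%) and 14 (10.9%). Each of the 29 kept its sign on either list without these arrays. Within set codes S2, S3 and S4 taken alone, 15 of the 29 neuron slopes and 19 of the 29 oligodendrocyte slopes had the sign of the whole in each of the 3. Signs were not counted over all called probe sets. The arrays used here also gave the calls, so agreement in sign is partly built in. Over the 26 arrays in which the spike-in control Dap lay above a log2 value of 6, 6 (5.84%) and 7 (6.3%) passed.

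Some slopes passed without those arrays as well. SLC6A8 kept an oligodendrocyte slope of 0.64 without them (adjusted p = 0.00369) and had 0.64, 1.22 and 1.02 within S2, S3 and S4. The oligodendrocyte slope was 0.81 without them for SLC12A4 and 0.78 for SLC2A5, and SLC26A11 had a neuron slope of 2.09. SLC25A12 had a neuron slope of 0.47 without them (adjusted p = 0.0163) and 0.33, 0.74 and 0.97 within the same set codes. SLC41A1 and SLC9A3R1 had neuron slopes of -0.78 and -0.65 in all arrays, but -0.46 and -0.24 without those arrays, and 0.03 and 0.04 within S3.

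**Figure D5:**
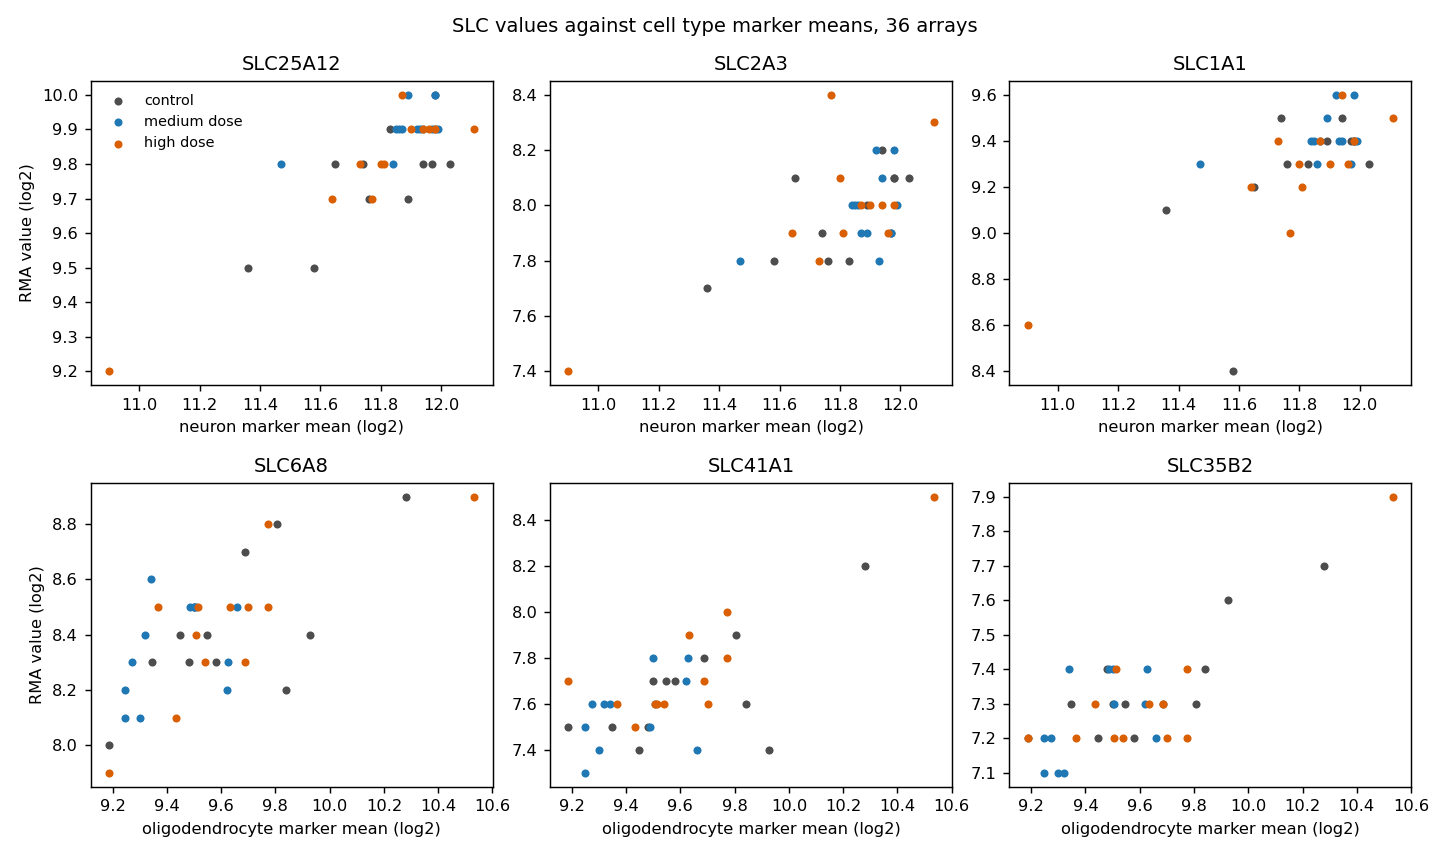
RMA values (log2, y axis) of 6 SLC genes against the mean of neuron markers (upper row) or oligodendrocyte markers (lower row) on the x axis, 1 point per array, coloured by feeding group. High-dose replicate 2 is the array at the far left of the upper row (10.90) and the far right of the lower row (10.53).

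On the means of the other cell type lists 0 of 120 members passed: astrocyte (background 0.0208%), microglia (0.484%), endothelium (0.209%), choroid plexus (0%) and meninges and fibroblast (0.0667%). Over the 36 arrays these means ran from 11.03 to 11.54 for astrocytes, from 7.63 to 8.96 for microglia, from 6.43 to 6.91 for endothelium, from 6.54 to 7.52 for choroid plexus and from 6.95 to 7.90 for meninges and fibroblasts. The smallest p values belonged to SLC4A4 on the astrocyte mean, with a slope of 1.37 (adjusted p = 0.17), and to SLC31A1, the copper importer, on the microglia mean (0.39, adjusted p = 0.11) and the endothelium mean (0.71, adjusted p = 0.173). SLC2A1 had a slope of 0.74 on the astrocyte mean (adjusted p = 0.637). SLC25A48 had the smallest p on the choroid plexus mean (0.71, adjusted p = 0.912) and SLC5A1 on that of meninges and fibroblasts (0.54, adjusted p = 0.605).

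Genes that work with solute carriers were read from the same fits, and 41 of 72 listed were measured. In each contrast 0 of the 41 passed. The 9 measured enzymes and chaperones of glucose and lactate use included the 2 of 41 partner genes with an unadjusted p under 0.05 at the medium dose, a share below the 6.43% of all probe sets: GYS1, glycogen synthase, with means of 5.89 ± 0.11 in controls and 6.07 ± 0.09 (difference 0.17, adjusted p = 0.545), and LDHA, lactate dehydrogenase, with 10.47 ± 0.31 and 10.67 ± 0.22 (0.21, adjusted p = 0.77). At the high dose HAMP, the iron hormone hepcidin, had means of 5.33 ± 0.16 in controls and 5.53 ± 0.17 (0.20, adjusted p = 0.877), and ATP1B3, a sodium pump subunit, 10.63 ± 0.13 and 10.74 ± 0.13 (0.13, adjusted p = 0.879). TFRC, the transferrin receptor, had 4.92 ± 0.17, 4.93 ± 0.17 and 4.93 ± 0.20 in control, medium and high dose. GLUL, which makes glutamine from the glutamate that astrocytes take up, had 12.61 ± 0.20, 12.63 ± 0.16 and 12.68 ± 0.26.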

How the data were processed

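Per the submitters' processing notes, the authors ran RMA (Affymetrix Expression Console 1.1) and deposited log2 values, 1 per probe set and array. RMA corrects background, normalises the arrays to 1 distribution and summarises probes. Its values have 1 decimal. Array controls (124 probe sets) were left out. Names came from the array annotation of 2016: 198 probe sets had several symbols and 13732 none, and these were tested but not named. By gene ID 118 of 120 members matched the RefSeq table. Of probe sets naming an SLC gene, 5 carried several symbols and were left out.

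In R 4.3.3 with limma 3.58.1, a model with group and set code was fitted over 36 samples, followed by eBayes; tests are two-sided, with Benjamini-Hochberg adjustment across the 23999 probe sets and calls at 0.05. P-values measure the spread between animals. Slopes used 1 fit per marker list over all probe sets, and that list's genes were left out of the background share only. Plots were made in Python 3.11.15 (matplotlib 3.10.9).

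Members, classes and lists were chosen with earlier results of these data known. The genes named are, per contrast and for set code, the members that passed and, where fewer than 10 did, the 10 with the smallest p; the 10 with the largest SD; per marker list the 3 with the smallest p of each sign; up to 3 per class and 2 per partner list; and transporters well known from brain. Others, among them the members named in counts of slopes and the region genes, were chosen after their values were seen. Other settings (blocks, filters on dim probe sets, scaling, weights, covariates, the mean of a gene's probe sets) are given at the end; leaving out single arrays was chosen after seeing the data.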

Additional observations from a re-analysis of the deposited data

Results flagged for a closer look

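SLC39A5 in set code S3 stood out for 1 sample far from the others: high-dose replicate 7 was at 8, the next highest of the 8 arrays at 7.8 and the lowest at 7.7. Among the 10 members tested in this way, 50 groups of 4 to 10 arrays were examined and 1 was picked out, where chance picks out about 1 in 20. The gap is 2 steps of the rounding to 0.1.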

How the results depend on the processing

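At an adjusted p under 0.05 the number of members was 0 in each feeding contrast and in the F test under every alternative run, single arrays left out included. The share of all probe sets under each alternative is not given here, so no trait of the members is read from the counts below. Counts at an unadjusted p under 0.05, in the order medium minus control, high minus control, high minus medium and F test (4, 5, 12 and 8), moved as follows. The F test gave 5 without the set block. A 25th percentile filter, which kept 101 of the 120 members, gave 2 at the medium dose and 5 in the F test. A 50th percentile filter, which kept 69, gave 3 at the high dose, 7 between the doses and 4 in the F test. Counts under these filters have smaller totals and are not set directly against those of 120 members. Array weights gave 9 at the medium dose, the spike-in control as a block 2 at the high dose, and actin 3′ to 5′ signal as a covariate 2 at each dose. Oligodendrocyte and choroid plexus means as covariates gave 8 at the high dose and 4 in the F test. Counting all 176 probe sets of the members, a larger total, gave 7 at the medium and 10 at the high dose. Without single arrays the 4 counts ran from 2 to 7, 1 to 9, 6 to 16 and 3 to 13. Medium minus control gave 2 without control replicates 5 or 6 or medium-dose replicate 7, and 7 without control replicate 12. High minus control gave 1 without control replicate 2, 2 without high-dose replicates 2 or 7, 3 without control replicates 3 or 6 or high-dose replicate 10, 8 without high-dose replicate 8 or control replicate 12, and 9 without medium-dose replicate 1. High minus medium gave 6 without high-dose replicate 10 and 7 without medium-dose replicate 4. The F test gave 3 without high-dose replicate 7, 4 without high-dose replicate 10 or medium-dose replicate 9, 5 without control replicate 2, medium-dose replicate 7 or high-dose replicates 5 or 9, and 13 without medium-dose replicate 1. The cause was not tested.

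Replicate numbers did not pair the samples: of 36 same-numbered pairs, 8 had deviations correlated over 0.1 (from -0.42 to 0.28), 24 shared a set code, and 1 sample correlated best with one of its own number. A replicate block with the set block gave unadjusted counts of 8, 10, 21 and 13, and in place of it 5, 4, 9 and 6, with 0 adjusted calls either way. These counts too stand without the share of all probe sets and are not read as a result about the members.

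Members called for set code (1) became 0 with the mean of a gene's probe sets and ran from 0 to 3 without single arrays (0 without control replicates 1 or 2 or high-dose replicates 2 or 11, 2 without medium-dose replicate 2 or control replicate 12, 3 without medium-dose replicate 1), and unadjusted counts ran from 11 to 21 (18 with all arrays; 11 without high-dose replicate 7). The 3 calls of single set codes became 1 with the actin covariate, 1 with the marker covariates and 1 with the gene mean, under which SLC33A1 in S4 was -0.05, and ran from 0 to 5 without single arrays. Neuron slopes passed for 13 members without the 2 farthest arrays and 6 on arrays with the spike-in control, against 6 and 7 for oligodendrocyte slopes; single arrays gave 21 to 32 and 14 to 31. On the microglia mean 1 of 120 members, SLC1A6 (-0.43), passed without group and set terms, against 1.08% of all probe sets. Slopes that turned sign, most of them not called, were on neurons in S3 SLC41A1 (0.0265) and SLC9A3R1 (0.0353); on astrocytes SLC12A4 (-1.03) and SLC7A4 (0.43) in S2, SLC2A1 (-0.0182) and SLC25A14 (0.18) in S3; on endothelium SLC1A2 (0.60) in S3; on choroid plexus SLC1A1 with the spike-in control (0.0857) and in S3 (0.0395), and in S2 SLC25A48 (-0.00957), SLC5A5 (-0.40) and SLC38A1 (-0.33); and on meninges SLC30A3 in S3 (-0.31). The cause was not tested. Signals below the 25th percentile and rounding to 0.1 limit what can be seen.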
